A study of Mus musculus with 6 samples.

Results

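The 10 genes described here belong to the transforming growth factor beta (TGF-beta) pathway and were followed through every probe that the array tables assign to them. They are the ligand Tgfb1, the receptors Tgfbr1, Tgfbr2 and Tgfbr3, the signal carriers Smad3 and Smad4, the inhibitory Smad7, and the repressors Ski, Skil and Tgif1. The rule took all probes with one of these symbols, the older symbol Tgif counting as Tgif1, and found 20 probes of 10 genes among the 46643 probes of the array. Of these 20 probes, 15 were detected on both arrays of at least 1 tissue (detection p under 0.01) and so were among the 18583 probes tested, and they cover 8 of the 10 genes. The cells came from gut lamina propria, skin and spleen of 12-week-old male C57BL/6 mice that lack RAG-2 and therefore make no T or B cells. They were sorted by the markers CD45+, CD3-, Nkp46+ and, as the labels spell it, NK11+, which is the sort of a natural killer (NK) cell population, although part of the innate lymphoid cells of the gut carries NKp46 too. Each tissue was measured on 2 Illumina mouse bead arrays, called I and II, with all I arrays on slide 1 and all II arrays on slide 2. Nothing says that I and II came from separate mice. The p-values set the tissue differences against the spread between arrays I and II, which may be technical alone. In that case they do not cover the spread between mice and would be too small for it. Having 2 arrays a tissue also limits the precision.

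Signals were deposited as background-subtracted bead intensities scaled to a mean of 83.1 on every array. Of all probes, 16549 and 15279 were detected for intestine, 15196 and 16477 for skin, and 18266 and 18530 for spleen. Differences between tissues are on the log2(signal + 16) scale after quantile normalization, where the offset understates the change of dim genes. They are given ± SE from the limma fit over all 6 arrays, and a probe counts as higher or lower where its p, adjusted by Benjamini-Hochberg over all 18583 probes, was under 0.05. Each pair of comparisons shares the arrays of a tissue: spleen, intestine or skin. The comparisons are therefore not independent, and a gene high in intestine can pass in both intestine comparisons through the same arrays. Signals of different probes are not comparable with each other, and in RNA from many cells a smaller share of positive cells cannot be told apart from less RNA in each cell.

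TGF-beta is secreted in a latent form and acts once it is released. The active ligand binds the TGFBR2 kinase, which joins and activates the TGFBR1 kinase, while TGFBR3 (betaglycan) is a co-receptor that presents ligand. TGFBR1 phosphorylates SMAD2 and SMAD3, which enter the nucleus with the shared partner SMAD4. SKI, SKIL and TGIF1 bind SMAD complexes there and recruit co-repressors, and SMAD7 blocks the receptors. In the gut the cytokine is abundant, restrains the activation of NK cells, and supports expression of the integrin chain CD103 on lymphocytes near the epithelium.

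The sequences upstream of Tgfb1 and Tgif1 are shown because these were the members with the largest differences between tissues, and because the listed starts of Tgif1 differ in the motifs they hold. Each window is the 250 bases before a RefSeq start (build GRCm38.p6), 5′ to 3′ on the gene's strand. Capitals mark the SMAD box CAGAC or the GC box GGGCGG on either strand. The Tgfb1 window lies at chr7:25686752-25687001 on the plus strand, that of Tgif1 start 2 at chr17:70851735-70851984 and that of start 3 at chr17:70851211-70851460, both on the minus strand.
Tgfb1: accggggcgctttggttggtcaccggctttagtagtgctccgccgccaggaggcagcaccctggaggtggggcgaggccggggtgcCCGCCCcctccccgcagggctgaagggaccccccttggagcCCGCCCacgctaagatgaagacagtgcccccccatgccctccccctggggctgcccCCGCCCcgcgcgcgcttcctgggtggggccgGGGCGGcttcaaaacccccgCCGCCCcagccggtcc
Tgif1 start 2: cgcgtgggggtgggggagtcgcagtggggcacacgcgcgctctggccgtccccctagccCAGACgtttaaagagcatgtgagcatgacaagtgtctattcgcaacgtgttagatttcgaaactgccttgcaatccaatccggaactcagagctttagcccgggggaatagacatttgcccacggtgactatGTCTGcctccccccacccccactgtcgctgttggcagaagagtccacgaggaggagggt
Tgif1 start 3: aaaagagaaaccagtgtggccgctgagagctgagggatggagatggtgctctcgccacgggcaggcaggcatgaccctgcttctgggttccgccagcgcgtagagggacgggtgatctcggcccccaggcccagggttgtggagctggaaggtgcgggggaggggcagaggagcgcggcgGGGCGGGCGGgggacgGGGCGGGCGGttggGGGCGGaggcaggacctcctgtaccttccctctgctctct
The Tgfb1 window held 5 GC boxes and no SMAD box and was 75.2% G and C. Tgif1 has 5 starts in the RefSeq table, and 3 of the 5 windows hold a SMAD box, with 2 boxes at start 2 and none at start 3, where 5 GC boxes stand, some of them overlapping one another. Over 32851 windows of the same length in the table, 42.2% hold the SMAD box letters and 32.7% the GC box letters. Windows were found for 6 of the 8 members searched, 11 windows in all, and 5 of the 11 hold a SMAD box. The AP-1 letters TGANTCA (6.75% of all windows) and the cyclic AMP response letters TGACGTCA (1.55%) are in 0 of the 11. No box overlapped a box of another motif, and a match of letters is a description of the window, not a site.

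The ligand Tgfb1 and the repressors Tgif1 and Ski were higher in gut cells than in skin or spleen cells. Receptor probes passed in both directions between intestine and spleen, where Smad3 alone of the SMAD genes passed and was lower. The receptor and SMAD probes that passed between intestine and skin were higher in intestine. Between intestine and spleen, 10 of the 15 tested probes passed, where 47.5% of all tested probes passed. Of the 10, 7 were higher (background 19.9%) and 3 lower (background 27.6%), a split of 9 and 2 with median scaling of the arrays and of 7 and 4 with the deposited scaling alone. Between intestine and skin, 10 of 15 passed against 36.2% of all probes, 10 of them higher (background 16.7%) and 0 lower (background 19.5%), a split of 10 and 1 with median scaling and of 9 and 2 with the deposited scaling. At an unadjusted p under 0.05 there were 13, a looser threshold to which the backgrounds given here do not apply. Between skin and spleen only 3 of 15 passed, close to the background of 22.9%, 1 higher (background 10.8%) and 2 lower (background 12.1%), with splits of 3 and 2 and of 2 and 2 under the same scalings. That count lay between 1 without spleen II and 6 without intestine I or without intestine II. The other scalings shift every probe, since the median of all tested probes was 0.10, 0.07 and -0.02 with median scaling and -0.26, -0.15 and -0.15 with the deposited scaling for intestine against spleen, skin against spleen and intestine against skin. It was -0.07, -0.04 and -0.05 in the fit reported here.

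**Figure D1:**
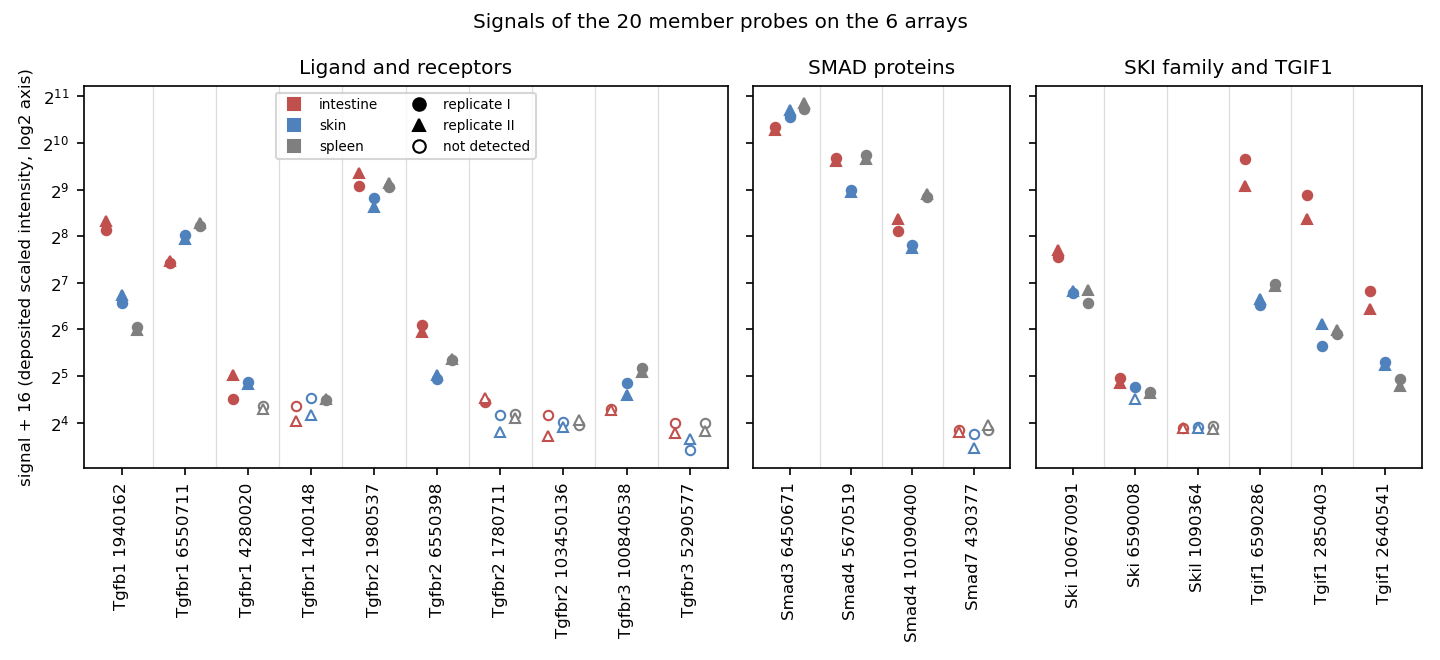
Deposited signal plus 16 on a log2 axis for the 20 probes of the 10 genes, with intestine, skin and spleen from left to right at each probe, circles for replicate I, triangles for replicate II and open symbols where the probe was not detected. The 3 Tgif1 probes and the Tgfb1 probe stand higher on both intestine arrays than on the other 4 arrays.

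The defining markers of the sort and of other cells were measured on the same arrays. Ncr1, the gene of NKp46, gave 10.8 and 14.7 in intestine, 33.1 and 32.4 in skin, and 88.2 and 52.9 in spleen, and Klrb1c and Ptprc were also detected on all 6, while Cd3e was detected on none. Of 11 NK cell markers, 10 were tested, and 8 were lower in intestine than in spleen and 6 lower in intestine than in skin, with 3 lower in skin than in spleen and 0 higher in any. Summed signals of the 8 T cell markers on the array were 850 and 1034 in intestine, 744 and 829 in skin, and 828 and 719 in spleen. Within that list Cd3g, which NK cells also express, gave 312 and 597 in intestine, 54.6 and 59.4 in skin, and 109 and 81.4 in spleen, Cd8a gave 6.05 and 23.3 in intestine and was not detected elsewhere, and Cd4 and Cd5 were detected on none. Cd8b1 went the other way, at 134 and 148 in intestine, 361 and 373 in skin, and 269 and 257 in spleen. It was lower in intestine than in skin or spleen and higher in skin than in spleen. Cd3d and Cd28 were detected on all 6 arrays and passed in no comparison. Among B cell markers, Cd79b gave 18.8 and 35.2 in intestine, 1.48 and 3.93 in skin, and 12.4 and 12.4 in spleen, higher in intestine than in skin or spleen and lower in skin than in spleen, Ms4a1 passed in no comparison, and Cd79a and Pax5 were detected on none. Platelet markers summed to 5.15 and 7.25 in intestine, 31.9 and 19.8 in skin, and 44.1 and 43.9 in spleen, with Pf4, Itga2b and Gp9 detected on none. In skin and spleen most of that was Gp1bb, at 0.937 and 3.80 in intestine, 18.1 and 13.1 in skin, and 40.9 and 37.7 in spleen. Of 5 macrophage and dendritic cell markers tested, 3 (Lyz2, Adgre1 and C1qa) were lower in intestine than in spleen and lower in skin than in spleen, and Cd68 and Itgax did not pass. Those 3 passed the detection filter through spleen alone. Lyz2 gave 1.02 and -0.13 in intestine, 8.27 and 6.23 in skin, and 26.5 and 54.4 in spleen, and Csf1r, Cd14, Flt3 and Xcr1 were detected on none. Endothelial markers summed to 577 and 745 in intestine, 198 and 241 in skin, and 246 and 245 in spleen. Nearly all of that was Pecam1, which leukocytes also express, at 550.4 and 728 in intestine, and Cdh5 and Tek were detected on none. Fibroblast markers summed to 56.7 and 25.7 in intestine, 52.5 and 26.6 in skin, and 8.26 and 7.57 in spleen, with Col1a1, Col1a2, Col3a1 and Lum detected on none. Dcn carried most of the skin and intestine I sums, at 45.7 and -2.53 in intestine, 34.2 and 17.1 in skin, and -0.44 and -3.49 in spleen, and was detected on intestine I and both skin arrays but passed in no comparison. Neutrophil markers summed to 3.28 and 6.27 in intestine, 0.572 and 0.914 in skin, and 3.17 and 121 in spleen, where S100a8 (81.1) and S100a9 (37.4) made up most of the sum on spleen II. Mast cell and basophil markers summed to 4.69 and 21.0 in intestine, 5.37 and 15.2 in skin, and 3.43 and 5.87 in spleen, and keratinocyte markers to 39.6 and 41.9 in intestine, 37.0 and 35.2 in skin, and 41.8 and 39.8 in spleen. Gut epithelial markers summed to 21.8 and 33.5 in intestine, 26.0 and 31.1 in skin, and 11.4 and 15.2 in spleen, with Epcam, Fabp1, Fabp2 and Krt8 detected on none. Erythroid markers summed to 1114 and 692 in intestine, 1030.2 and 782 in skin, and 11704 and 17609.6 in spleen. Immediate early genes, which rise within minutes of a stimulus and also during cell isolation, moved with tissue as well. Of 21 tested, 18 were higher and 0 lower in intestine than in spleen (median 1.84), 15 higher and 1 lower in skin than in spleen (median 1.12), and 11 higher and 1 lower in intestine than in skin (median 0.88). The part of other cells and of the immediate early response in the member differences was not tested.

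The ligand gene followed an order of tissues. Tgfb1 (probe 1940162) gave 264 and 306 in intestine, 78.6 and 91.1 in skin, and 50.5 and 47.7 in spleen. The 3 tissues did not overlap, with intestine highest and spleen lowest. Intestine was 5.92-fold higher than spleen (log2 difference 2.56 ± 0.14, adjusted p = 1.05e-06) and 3.21-fold higher than skin (1.68 ± 0.14, adjusted p = 1.59e-05). Skin was 1.84-fold higher than spleen (0.88 ± 0.14, adjusted p = 0.0041), a call that ended without spleen II (0.86, adjusted p = 0.0522). The intestine difference from spleen was 2.44 within slide 1 and 2.69 within slide 2.

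Among the receptors, probes of the same gene did not always go the same way. Tgfbr1, the kinase that phosphorylates the SMADs, gave 156 and 161 in intestine, 245 and 231 in skin, and 281 and 294 on the spleen arrays with its brightest probe (6550711). The intestine arrays were lowest, and skin and spleen signals lay close together. The fall in intestine against spleen was 1.33-fold (-0.41 ± 0.13, adjusted p = 0.0284), while intestine against skin just missed the threshold (-0.37 ± 0.13, adjusted p = 0.0504) and skin against spleen gave -0.04 ± 0.13 (adjusted p = 0.865). The intestine against spleen call ended without spleen I (adjusted p = 0.121), spleen II (0.174) or intestine I (0.0599), and also with an offset of 4 (0.0612) or without the filter on dim probes (0.0841). Intestine against skin passed under 7 alternatives, with adjusted p down to 0.00798 with the deposited scaling.

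A dimmer Tgfbr1 probe went the other way. Probe 4280020 gave 6.93 and 16.7 in intestine and 13.2 and 12.4 in skin, and was not detected in spleen, at 4.46 and 3.48. Both tissues lay above spleen. Intestine was higher than spleen (0.51 ± 0.18, adjusted p = 0.0369). For the undetected tissue, a floored fold takes the higher of the dim signal and the lowest detected signal of each array. With this floor intestine was 1.39-fold higher. A floored fold is an estimate from the means and does not cover the spread between arrays. The unfloored difference was 0.21 within slide 1 and 0.81 within slide 2. Skin against spleen gave 0.44 ± 0.18 (adjusted p = 0.0934), and passed with median scaling (0.76, adjusted p = 0.00709), the deposited scaling (0.0346) or normalization over the kept probes (0.0324), and without intestine I (0.0201) or intestine II (0.0211). The intestine call was weak, since it ended with an offset of 50 (0.089), with no filter (0.0785) and when any 1 of 5 arrays was left out, at an adjusted p of 0.122 without spleen I, 0.17 without spleen II, 0.186 without intestine II, 0.0546 without skin I and 0.0541 without skin II. A last Tgfbr1 probe (1400148) gave 4.46 and 0.472 in intestine, 6.99 and 2.06 in skin, and 6.37 and 6.59 in spleen, and was detected on the spleen arrays alone. It passed in no comparison (adjusted p = 0.159 for intestine against spleen, 0.0343 without intestine I).

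Tgfbr2, the kinase that binds the ligand, was higher in intestine than in skin with both of its tested probes. The brighter probe (1980537) gave 525 and 642 in intestine, 432.5 and 378 in skin, and 513 and 550.1 in spleen. In deposited signal intestine I lay between the spleen arrays, and both skin arrays lay below all others. After normalization both intestine arrays lay above both spleen arrays. Intestine was 1.44-fold higher than skin (0.53 ± 0.16, adjusted p = 0.0267), a call lost without intestine II (0.115) or skin II (0.144) and with an offset of 4 (0.0829) or no filter (0.0605), while intestine against spleen gave 0.32 ± 0.16 (adjusted p = 0.125, with 0.0186 under median scaling and 0.0332 without intestine I) and skin against spleen -0.21 ± 0.16 (adjusted p = 0.356). The intestine against skin difference was 0.25 within slide 1 and 0.80 within slide 2.

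The second Tgfbr2 probe (6550398) separated intestine more clearly. It gave 51.9 and 46.0 in intestine, 14.6 and 16.4 in skin, and 24.8 and 25.4 in spleen. Intestine stood above both other tissues, 2.02-fold over spleen (1.01 ± 0.14, adjusted p = 0.000267) and 2.41-fold over skin (1.27 ± 0.14, adjusted p = 8.15e-05). Skin was below spleen on every array without passing (-0.26 ± 0.14, adjusted p = 0.19). Of the untested Tgfbr2 probes, 1780711 was detected on intestine I alone (5.83, against 7.17 on intestine II and at most 2.11 elsewhere), and 103450136 was detected on no array.

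The co-receptor gene Tgfbr3 ran opposite to the ligand. Its probe 100840538 was not detected in intestine, at 3.65 and 3.30, against 13.0 and 8.31 on the skin arrays and 20.1 and 18.0 in spleen. The tissues did not overlap, with spleen highest. Intestine was lower than spleen (-0.74 ± 0.14, adjusted p = 0.00205), with a floored fold of 1.39. The steps through skin did not pass, at -0.37 ± 0.14 for skin against spleen (adjusted p = 0.0829) and -0.37 ± 0.14 for intestine against skin (adjusted p = 0.0663). Skin against spleen passed without intestine I (0.0499) or intestine II (0.0476), and intestine against skin with the deposited scaling (0.0293) or an offset of 4 (0.0349). The other Tgfbr3 probe (5290577) was detected on no array.

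**Figure D2:**
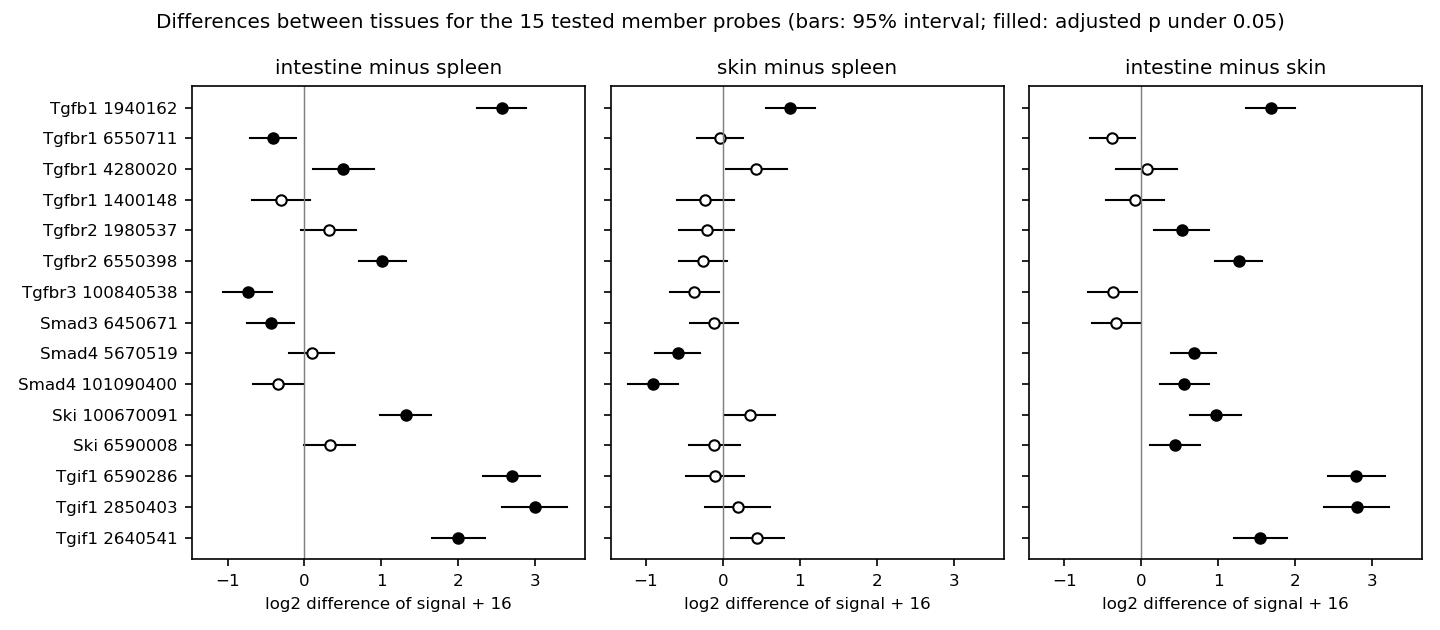
Log2 differences of signal plus 16 for the 15 tested probes, in 3 panels for intestine minus spleen, skin minus spleen and intestine minus skin, with 95% intervals as bars and filled points where the adjusted p was under 0.05. The Tgif1 probes lie between 1.55 and 3.0 in both intestine panels, and 12 of 15 points are open in the skin minus spleen panel.

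Smad3 and Smad4 were detected on all 6 arrays and Smad7 on none, and Smad4 was lowest in skin. Smad3, the carrier that TGFBR1 phosphorylates, gave 1285 and 1233 in intestine, 1496 and 1653 in skin, and 1669 and 1828 in spleen. In deposited signal all 3 tissues were apart, with intestine lowest and spleen highest, but skin and spleen overlapped after normalization. Intestine was 1.36-fold lower than spleen (-0.44 ± 0.14, adjusted p = 0.0259), and neither intestine against skin (-0.33 ± 0.14, adjusted p = 0.0967, with 0.0257 at an offset of 50 and 0.0406 with a variance trend) nor skin against spleen (-0.12 ± 0.14, adjusted p = 0.566) passed. The call ended with median scaling (-0.11, adjusted p = 0.54), an offset of 4 (0.0684) or no filter (0.0716), and without spleen I (0.0686) or spleen II (0.21).

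Smad4, the shared partner of the signal-carrying SMADs, was lowest in skin with both of its probes. The brighter probe (5670519) gave 807 and 764 in intestine, 494 and 476 in skin, and 835 and 789.6 in spleen. The deposited signals of intestine and spleen overlapped, and both skin arrays lay far below them. After normalization the intestine values lay just above the spleen values. Skin was 1.5-fold lower than spleen (-0.59 ± 0.13, adjusted p = 0.0143), intestine was 1.60-fold higher than skin (0.68 ± 0.13, adjusted p = 0.00257), and intestine against spleen gave 0.09 ± 0.13 (adjusted p = 0.573). The skin against spleen call ended without spleen I (0.136), spleen II (0.107), skin I (0.0592) or skin II (0.0556).

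The other Smad4 probe (101090400) gave 261 and 312 in intestine, 209 and 199 in skin, and 443 and 461 in spleen. Here all 3 tissues were apart, with spleen highest. Skin was 1.87-fold lower than spleen (-0.91 ± 0.14, adjusted p = 0.00393), and this call held under all 16 alternatives that could be run for it. Intestine was 1.48-fold higher than skin (0.56 ± 0.14, adjusted p = 0.0119, and 0.064 without skin II), while intestine against spleen gave -0.34 ± 0.14 (adjusted p = 0.0737) and passed with the deposited scaling (-0.63, adjusted p = 0.00296), an offset of 50 (0.0288) or a variance trend (0.0432), and without intestine II (0.0281). The single Smad7 probe (430377), for the inhibitory SMAD, was detected on no array, with signals between -4.95 and -0.64.

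Among the repressors, Tgif1 showed the largest differences of the 8 tested genes. Tgif1 encodes a homeobox protein that holds SMAD complexes silent, and its brightest probe (6590286) gave 792 and 528 in intestine, 76.3 and 84.8 in skin, and 110.4 and 105 in spleen. Both intestine arrays stood apart from the other 4, and skin and spleen were close together. Intestine was 6.49-fold higher than spleen (2.70 ± 0.17, adjusted p = 1.9e-06) and 6.96-fold higher than skin (2.80 ± 0.17, adjusted p = 2.17e-06), while skin against spleen gave -0.10 ± 0.17 (adjusted p = 0.679). Intestine I was brighter than intestine II with every Tgif1 probe, and the intestine against spleen difference of this probe was 2.90 within slide 1 and 2.49 within slide 2.

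The other Tgif1 probes gave the same picture. Probe 2850403 gave 455 and 314 in intestine, 34.0 and 53.3 in skin, and 44.1 and 47.2 in spleen. Intestine was 7.97-fold higher than spleen (3.0 ± 0.19, adjusted p = 2.24e-06) and 6.98-fold higher than skin (2.80 ± 0.19, adjusted p = 4.18e-06), and skin and spleen overlapped (0.19 ± 0.19, adjusted p = 0.478). Probe 2640541 was dimmer, at 98.1 and 70.7 in intestine, 23.5 and 21.5 in skin, and 14.5 and 11.8 in spleen. Intestine was 4.0-fold higher than spleen (2.0 ± 0.15, adjusted p = 7.44e-06) and 2.93-fold higher than skin (1.55 ± 0.15, adjusted p = 4.75e-05). With this probe the skin arrays also lay above the spleen arrays, by 0.45 ± 0.15 (adjusted p = 0.0597). That difference passed with the slide as a replicate block (adjusted p = 0.0429), without intestine I (0.0197) or intestine II (0.0177), with median scaling (0.0132) and over the probes detected on all 6 arrays (0.0466).

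Ski was higher in intestine as well. Ski encodes a proto-oncoprotein that binds SMAD3 and SMAD4, and its brighter probe (100670091) gave 171 and 192 in intestine, 94.0 and 96.7 in skin, and 79.2 and 99.4 in spleen. Intestine stood apart, and the deposited skin signals lay between those of the spleen arrays. After normalization both skin arrays lay above both spleen arrays. Intestine was 2.5-fold higher than spleen (1.32 ± 0.15, adjusted p = 8.28e-05) and 1.96-fold higher than skin (0.97 ± 0.15, adjusted p = 0.000705), and skin against spleen gave 0.35 ± 0.15 (adjusted p = 0.11). The dim Ski probe (6590008) gave 15.1 and 13.1 in intestine, 11.1 and 6.59 in skin, and 9.39 and 8.93 in spleen, and was not detected on skin II. Intestine was highest without a wide gap. It was 1.36-fold higher than skin (0.44 ± 0.15, adjusted p = 0.0417), a call that ended in 8 of 15 alternatives, among them without spleen I (0.099), spleen II (0.0993), intestine I (0.137) or skin II (0.188). Against spleen it gave 0.33 ± 0.15 (adjusted p = 0.0911, with 0.00428 under median scaling and 0.0387 without intestine II). The single probe of Skil (1090364), which encodes the SKI relative SnoN, was detected on no array, with signals between -1.38 and -0.86.

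Taking each gene by its brightest tested probe, 6 of the 8 tested genes passed between intestine and spleen, 3 higher and 3 lower, beside backgrounds of 20.5% higher and 27.8% lower over the 13455 genes tested. The higher ones were Tgfb1, Ski and Tgif1, and the lower ones Tgfbr1, Tgfbr3 and Smad3. Between intestine and skin 5 of 8 passed, 5 higher (background 16%) and 0 lower (background 22.1%), namely Tgfb1, Tgfbr2, Smad4, Ski and Tgif1. Between skin and spleen 2 of 8 passed, with Tgfb1 higher (background 12.3%) and Smad4 lower (background 10.8%). The median difference of the 8 genes was 0.21, 0.60 and -0.11 in these comparisons in that order, beside -0.04, -0.08 and 0.0036 over all genes.

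The genes whose 6 array values ran closest to those of Tgfb1, Ski and Tgif1 were found by the root mean square difference of log2 values, each centred on its own mean. For Tgfb1 they were Tnfrsf9, which encodes the co-stimulatory receptor 4-1BB (0.0897), and LOC385919 (0.101). Tnfrsf9 gave 298 and 341 in intestine, 88.8 and 96.3 in skin, and 64.0 and 46.0 in spleen. Its 3 tissues were apart in the same order as those of Tgfb1. For Ski the closest were 5830444F18Rik (0.0767) and 4631423B10Rik (0.0818), and the 5830444F18Rik signals were 635 and 654 in intestine, 326 and 333 in skin, and 298 and 306 in spleen. For Tgif1 they were Tnfsf11, which encodes the cytokine RANKL (0.13), and Slc32a1, which encodes a vesicular transporter of inhibitory amino acids (0.134). Tnfsf11 gave 122 and 64.9 in intestine, 1.69 and -0.53 in skin, and 2.67 and 3.58 in spleen. Its signals were thus near 0 outside intestine, where Tgif1 was still detected. All profiles come from the same 6 arrays of 3 tissues, so this likeness is a description.

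**Figure D3:**
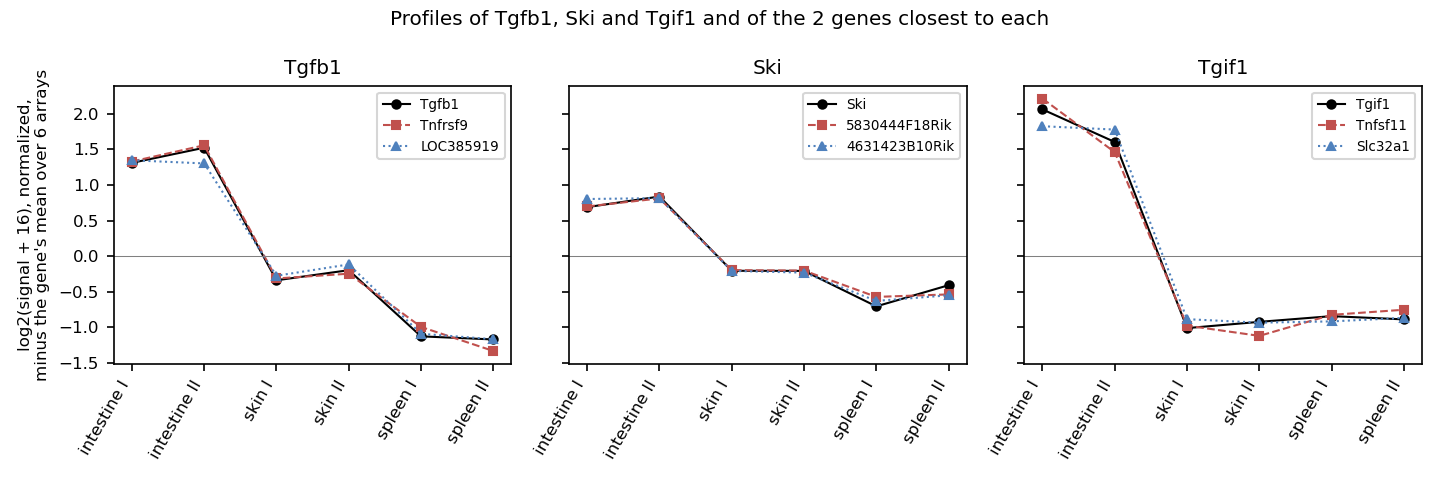
Normalized log2(signal + 16) minus each gene's own mean over the 6 arrays, for Tgfb1, Ski and Tgif1 in black and the 2 genes closest to each in colour, with intestine, skin and spleen arrays from left to right. The lines of a panel differ from the member by a root mean square of 0.0767 to 0.134, over member ranges of 2.69 for Tgfb1, 1.54 for Ski and 3.07 for Tgif1.

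Other genes of the pathway were counted in lists by role, with the brightest tested probe for each gene. The lists were drawn up with earlier results of these data known, and the counts describe them beside the share of all genes, 20.5% higher and 27.8% lower for intestine against spleen. Among common transcriptional targets of TGF-beta, 8 of 14 tested genes were higher and 3 lower in intestine than in spleen, with a median of 0.77. The list was not split by whether TGF-beta raises or lowers a gene. Its counts and medians, in each comparison, are therefore no measure of pathway activity. Id3 and Myc were among the higher genes and Tgfbi was among the lower (adjusted p = 0.0459). Tgfbi was dim, at -0.71 and 1.57 in intestine against 6.08 and 5.89 in spleen. It passed the detection filter through spleen alone, so its call rests on a probe that spleen let in. Cdkn1a, which encodes the cell cycle inhibitor p21, gave 1108 and 712 in intestine against 32.5 and 41.0 in spleen, 20.5-fold higher (4.36 ± 0.18, adjusted p = 2.57e-07). Itgae, the gene of CD103, gave 749 and 1822 in intestine against 93.3 and 76.2 in spleen, 13.8-fold higher (3.79 ± 0.35, adjusted p = 2.21e-05), although its other probes ran from 0.74 to 3.91. Both intestine arrays were far above spleen for these genes, and the Itgae signals of the intestine arrays lay far from each other. Pdgfb, a growth factor gene, went the other way, at 48.6 and 56.8 in intestine against 523 and 584 in spleen, 6.65-fold lower (-2.73 ± 0.15, adjusted p = 8.86e-07, other probe -0.90).

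The list of ubiquitin ligases, phosphatases and brakes was mixed in intestine against spleen. Of 20 tested genes, 7 were higher, 4 lower and 9 did not pass (median 0.25). The list also holds deubiquitinase genes such as Usp15 and Usp4, so not every gene in it is a brake. Its counts and medians, in each comparison, are therefore no measure of braking. Pmepa1 encodes a membrane protein that holds SMADs away from the receptor. It gave 47.1 and 47.3 in intestine and was not detected in spleen, at 3.62 and 1.85. It was higher in intestine (1.92 ± 0.13, adjusted p = 3.64e-06), with a floored fold of 3.44. Smurf2, a ubiquitin ligase that marks receptors and SMADs for destruction, was 2.35-fold higher (1.23 ± 0.14, adjusted p = 7.41e-05), with other probes from 0.25 to 0.93. Tgif2, the relative of Tgif1, was detected in intestine alone, at 18.9 and 13.4. It was higher there than in spleen (1.05 ± 0.19, adjusted p = 0.00158), with a floored fold of 1.63. All 3 stood above spleen on each intestine array. Tgif2 passed the detection filter through intestine alone, so its calls against spleen and skin rest on a probe that intestine let in.

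Of the other SMADs and their partners, 6 of 11 tested genes were lower, 1 was higher and 4 did not pass in intestine against spleen (median -0.43). Smad5, a carrier for bone morphogenetic proteins, gave 10.6 and 18.3 in intestine against 137 and 128 in spleen, 3.84-fold lower (-1.94 ± 0.16, adjusted p = 1.12e-05). The co-activator gene Ep300 fell by 0.98 ± 0.14 on the log2 scale (adjusted p = 0.000404) and the endosomal SMAD anchor gene Zfyve16 by 0.79 ± 0.17 (adjusted p = 0.00456). Of 7 other receptors and co-receptors tested, 0 were higher, 2 lower and 5 did not pass (median 0.12). The lower ones were Tgfbrap1, which encodes a protein that binds TGFBR1 (-1.10 ± 0.14, adjusted p = 0.000201, other probe 0.19), and the receptor gene Bmpr2 (-0.51 ± 0.14, adjusted p = 0.0146, other probe 0.52), so each had a probe of the other sign. In the kinase branch, 4 of 9 genes were lower, 1 higher and 4 did not pass (median -0.11). Its named genes were Mapk14, the p38 kinase (-0.81 ± 0.15, adjusted p = 0.00184), Tab1 (-0.66 ± 0.18, adjusted p = 0.0119) and Tab2 (0.56 ± 0.16, adjusted p = 0.0149), adaptors of the kinase TAK1.

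The list of ligand storage and release was partly higher in intestine than in spleen. Of 10 tested genes, 4 were higher, 1 was lower and 5 did not pass (median 0.46). The 4 included Fst, the follistatin gene, which was not detected in spleen. Not every listed gene stores or releases TGF-beta itself. Furin, the protease that cuts the TGF-beta precursor, gave 58.6 and 59.98 in intestine against 9.61 and 7.02 in spleen, 3.5-fold higher (1.81 ± 0.15, adjusted p = 9.93e-06). Itgav, the integrin chain of the main activators of latent TGF-beta, was 2.25-fold higher (1.17 ± 0.15, adjusted p = 0.000152, other probes 0.28 to 1.42), and Itgb1, another integrin chain, fell by 0.87 ± 0.14 on the log2 scale (adjusted p = 0.000748). Of 13 other ligands listed, 9 were detected on no array and 3 were tested. Tgfb3 alone of these passed, 1 higher and 0 lower with a median of 0.34 over the 3, at 0.95 ± 0.14 (adjusted p = 0.000506). Of the 18 pathway genes named for intestine against spleen, 15 kept their call with each array left out in turn. Without spleen I, Bmpr2, Tab1 and Tab2 lost it (adjusted p = 0.0518 to 0.166), and without spleen II, Bmpr2 and Tab1 (0.0648 to 0.0738).

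**Figure D4:**
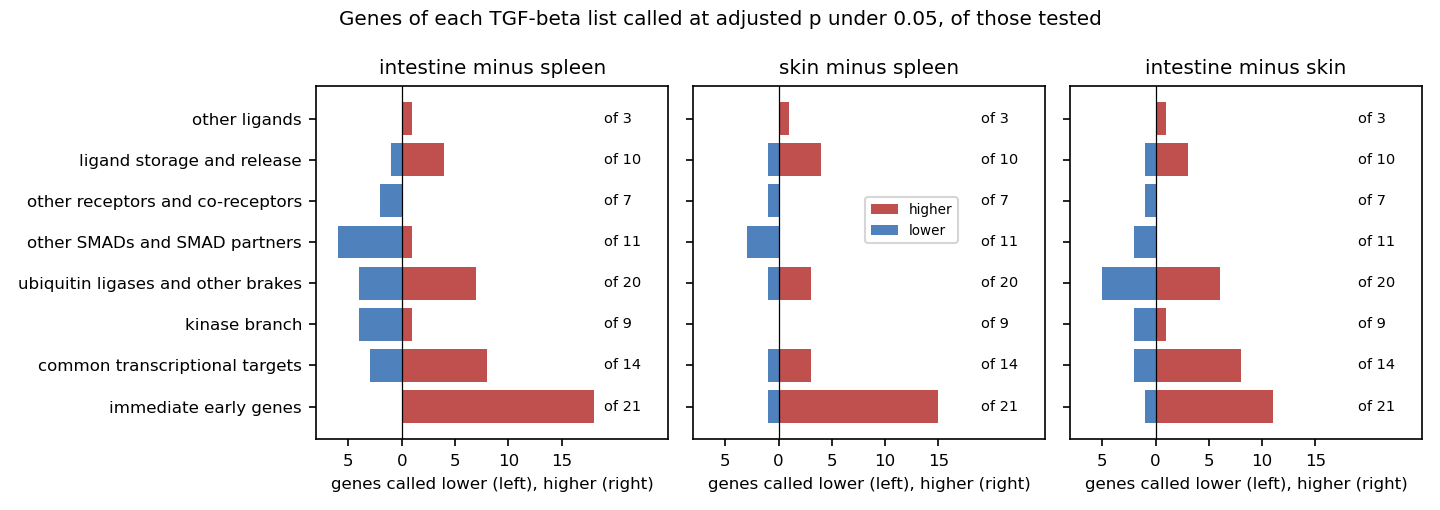
Numbers of genes called higher (right of 0) and lower (left of 0) in each pathway list and among the immediate early genes, in 3 panels for intestine minus spleen, skin minus spleen and intestine minus skin, with the number tested at the right. Common targets had 8 of 14 genes higher in both intestine panels, against 3 of 14 for skin minus spleen, and the other SMADs and partners had 6, 3 and 2 of 11 genes lower.

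For intestine against skin, the common targets again held the highest count of higher genes among the pathway lists, beside backgrounds of 16% of genes higher and 22.1% lower. Of the common targets, 8 of 14 were higher and 2 lower (median 0.73). Cdkn1a gave 1108 and 712 in intestine against 60.5 and 61.9 in skin, so that intestine was 11.9-fold higher (3.57 ± 0.18, adjusted p = 8.89e-07), and Itgae gave 749 and 1822 in intestine against 175 and 105 in skin, with intestine 7.63-fold higher (2.93 ± 0.35, adjusted p = 0.000143, other probes 0.82 to 3.07). The Itgae difference was 1.97 within slide 1 and 3.89 within slide 2. Pdgfb, at 48.6 and 56.8 in intestine against 556 and 510.4 in skin, was 7.18-fold lower in intestine (-2.84 ± 0.15, adjusted p = 9.36e-07), with another probe at -0.22. Of 20 genes in the ligase and brake list, 6 were higher and 5 lower (median 0.02). Pmepa1 was 2.76-fold higher (1.46 ± 0.13, adjusted p = 2.63e-05) and Smurf2 2.49-fold higher (1.31 ± 0.14, adjusted p = 6.19e-05). Tgif2 was higher too (0.96 ± 0.19, adjusted p = 0.00316), with a floored fold of 1.45. Of 10 genes of ligand storage and release, 3 were higher and 1 lower (median -0.13). Furin was 3.4-fold higher (1.77 ± 0.15, adjusted p = 1.5e-05), Itgav 2.36-fold higher (1.24 ± 0.15, adjusted p = 0.000136, other probes 0.29 to 1.19), and Itgb1 2.5-fold lower (-1.32 ± 0.14, adjusted p = 6.95e-05, other probes -0.37 and -0.25). Of 11 other SMADs and partners 0 were higher and 2 lower (median -0.11), Smad5 by 0.70 ± 0.16 (adjusted p = 0.007) and the SMAD4 regulator gene Trim33 by 0.51 ± 0.15 (adjusted p = 0.0209), whose other probes gave 0.04 and 0.17. Of 9 kinase branch genes 1 was higher and 2 lower (median 0.05): Tab2 higher (0.52 ± 0.16, adjusted p = 0.0258), Mapk14 lower (-1.11 ± 0.15, adjusted p = 0.000347) and Tab1 lower (-1.04 ± 0.18, adjusted p = 0.00129, other probe 0.33). Of 7 other receptors 0 were higher and 1 lower (median -0.09), Tgfbrap1 (-0.79 ± 0.14, adjusted p = 0.00187), and of 3 other ligands Tgfb3 alone was higher, 1 against 0 lower (0.43 ± 0.14, adjusted p = 0.0403, list median -0.06). With each array left out in turn, 12 of these 16 genes kept their call. Tgfb3 lost it without spleen I (0.0843), spleen II (0.0856), intestine II (0.129), skin I (0.11) or skin II (0.122), Tab2 without intestine I (0.0828) or skin I (0.15), Trim33 without intestine II (0.0697) or skin I (0.121), and Smad5 without skin I (0.0552).

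For skin against spleen, most genes of these lists did not pass, beside backgrounds of 12.3% higher and 10.8% lower. Of 14 common targets, 3 were higher and 1 lower (median 0.10). Junb, an AP-1 subunit gene, gave 1707 and 1982 in skin against 527 and 705 in spleen, 3.23-fold higher (1.69 ± 0.17, adjusted p = 0.000529). Other AP-1 genes, counted among the immediate early genes, were higher in skin too: Fos (1.13), Fosb (2.86) and Jund (1.20). Jun (0.68) and Fosl2 (0.53) did not pass, and the part of the immediate early response in the Junb difference was not tested. Id2, an inhibitor of helix-loop-helix factors, gave 1341 and 1538 in skin against 2909.8 and 2669.9 in spleen, 1.93-fold lower (-0.95 ± 0.14, adjusted p = 0.00249, other probe -0.44), and Cdkn1a was 1.72-fold higher (0.79 ± 0.18, adjusted p = 0.0165). Of 11 other SMADs and partners 0 were higher and 3 lower (median -0.27): Smad5 (-1.25 ± 0.16, adjusted p = 0.00145), Ep300 (-0.86 ± 0.14, adjusted p = 0.00472) and Zfyve16 (-0.54 ± 0.17, adjusted p = 0.0499). Of 10 genes in the ligand storage and release list 4, Fst among them, were higher and 1 lower (median 0.46). The activator genes Itgb6 (0.68 ± 0.15, adjusted p = 0.0157) and Thbs1 (0.67 ± 0.16, adjusted p = 0.0198) were higher and the protease gene Mmp9 lower (-0.68 ± 0.20, adjusted p = 0.0363). Itgb6 was dim, at 25.9 and 17.7 in skin against 7.22 and 7.21 in spleen. So was Thbs1, at 24.8 and 16.6 in skin against 5.44 and 7.58 in spleen. Of 20 genes in the ligase and brake list 3 were higher and 1 lower (median 0.15). The ubiquitin ligase gene Nedd4l (0.72 ± 0.13, adjusted p = 0.00762) and the TGFBR1 binder Fkbp1a (0.48 ± 0.14, adjusted p = 0.0348) were higher. The 1 lower was the deubiquitinase gene Usp15 (-0.71 ± 0.19, adjusted p = 0.0286), which is not counted here as a brake. Usp15 was dim too, at 1.99 and 8.69 in skin against 21.6 and 18.2 in spleen, and was detected on 5 of the 6 arrays. Of 3 other ligands Tgfb3 was higher, 1 against 0 lower (0.52 ± 0.14, adjusted p = 0.0306, list median 0.52), of 7 other receptors 0 were higher and Bmpr2 was the 1 lower (-0.45 ± 0.14, adjusted p = 0.0466, other probe 0.27, list median 0.12), and of 9 kinase branch genes 0 passed either way (median -0.23). Few of these calls held with fewer arrays. Of the 14 named genes, 3 (Smad5, Junb and Id2) kept the call with every array left out in turn, while 10 lost it without spleen I (adjusted p = 0.088 to 0.303), 11 without spleen II (0.068 to 0.273), 9 without skin I (0.084 to 0.211) and 6 without skin II (0.0599 to 0.117).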

How the data were processed

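The deposited tables give each probe an average intensity over its beads, per the file headers. The values show that background had been subtracted (30.7% to 32.7% of probes below 0) and each array scaled to 1 mean. A deposited detection p-value, again per the file headers, stands beside each intensity. For neither do the sources used here describe the computation. BeadStudio 1.5.1.3 is named in the submitters' processing notes. The deposited unscaled mean intensity, from the series' value table, was 82.7 and 50.9 for the intestine arrays, 43.7 and 53.4 for skin and 137 and 131 for spleen.

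An offset of 16 was added, the log2 taken and all probes quantile normalized. Kept were probes whose detection p was under 0.01 for both arrays of some tissue. The fit was limma 3.58.1 (lmFit, eBayes) in R 4.3.3 on all 6 arrays with 1 mean per tissue, leaving 3 residual degrees of freedom. The planned normexp correction was not used because background was already subtracted. The fit was tested on simulated data.

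Older symbols were translated through a RefSeq gene table. The 10 members, the lists by role and the markers were chosen with earlier results of these data known. Some listed markers, and so the sums of the lists that hold them, are not reported here. Named were all member probes, up to 3 called genes per list and comparison with the largest difference and all array pairs of one sign, a few sort markers, and the 2 closest profiles of each member that differed by at least 1.

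Same-numbered arrays share a slide. Their deviations correlated weakly, at 0.143 (intestine with spleen), 0.193 (skin with spleen) and 0.107 (intestine with skin). These values do not show whether same-numbered samples were paired beyond the shared slide, and the slide was tried as a block. Other alternatives were median scaling, the deposited scaling alone, offsets of 4 and 50, no filter, detection on all 6 arrays, the unscaled values, a variance trend, 1 probe per gene, leaving out each array, values within each slide and, added after seeing the data, normalization over the kept probes only. Replicate arrays correlated at 0.984 (intestine), 0.989 (skin) and 0.995 (spleen) across the kept probes, which are not independent.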

Additional observations from a re-analysis of the deposited data

How the results depend on the processing

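Of 23 member calls, 15 held under every alternative run and 8 ended under some, each named in the report, and of 22 member differences that did not pass, 18 changed side or sign under some. With the slide as a replicate block, 10, 4 and 10 member probes passed for intestine against spleen, skin against spleen and intestine against skin, and Tgif1 probe 2640541 in skin against spleen was the 1 member call it changed (adjusted p = 0.0429). With 1 probe per gene, 6 genes passed for intestine against spleen and 6 for intestine against skin, because fewer probes were tested. For skin against spleen, 5 passed with median scaling, and leaving out 1 array gave 1 to 6 (7 to 11 for intestine against spleen and 7 to 10 for intestine against skin). Sign changes touched only differences that did not pass. With median scaling these were 0.068 for Tgfbr1 probe 1400148 in intestine against spleen, and in skin against spleen 0.086 for the same probe, 0.077 for Smad3 and 0.20 for Ski probe 6590008. With the deposited scaling they were -0.047 for Smad4 probe 5670519 (intestine against spleen), -0.066 for Tgif1 probe 2850403 (skin against spleen) and -0.072 for Tgfbr1 probe 4280020 (intestine against skin). With 1 array left out, skin against spleen ran from -0.089 to 0.017 for Tgfbr1 probe 6550711, from -0.22 to 0.0048 for Ski probe 6590008 and from -0.032 to 0.42 for Tgif1 probe 2850403, the sign turning without skin II. Intestine against skin ran from -0.20 (without intestine II) to 0.34 for Tgfbr1 probe 4280020 and from -0.28 to 0.11 for probe 1400148, which turned without intestine II or, at 0.071, without skin I. The cause was not tested. Over all probes, the skin against spleen count of 4253 was 632 without spleen I, 622 without spleen II, 1165 without skin I, 2482 without skin II, 6421 and 6422 without intestine I and II, 2470 with an offset of 4 and 2277 with no filter, and that of intestine against spleen, 8822, was 5211 and 5279 without spleen I and II. Of the intestine against spleen calls over all probes, 3699 were higher and 5123 lower, against 6002 and 4204 with median scaling and 2548 and 7786 with the deposited scaling. The same split was 2000 and 2253 for skin against spleen (3869 and 1869 with median scaling, 1956 and 4406 with the deposited scaling) and 3096 and 3631 for intestine against skin (2477 and 4889 with the deposited scaling). Of 48 pathway gene results, 30 held under every alternative and 18 ended under some. Dim probes such as Tgfbr1 4280020 and Ski 6590008 lie near the detection limit.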
